A study of Mus musculus with 8 samples.

Results

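The segments described here are the 185 immunoglobulin heavy chain variable (Ighv) records among 55401 genes counted in sorted mouse haematopoietic stem cells (HSCs). They were chosen by name alone, as every gene whose symbol begins with Ighv and a digit. HSCs, the marrow cells from which all blood lineages descend, were sorted from C57BL/6 mice at 8 weeks of age, with about 3000 cells sorted for each RNA-seq library. The 4 Nynrin CKO libraries came from Nynrin fl/fl Tie2-Cre mice, in which Cre recombinase under the Tie2 promoter, active in endothelium and blood cells, deletes the floxed Nynrin gene. The 4 control libraries came from Nynrin fl/fl mice without Cre and are labelled wild type. Both groups thus carried the floxed alleles but only 1 of the 2 carried Cre, and effects of Cre and of Nynrin loss cannot be told apart. Whether every library came from its own mouse is not stated, so each p-value rests on the spread among these libraries, part of which may be technical.

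An antibody heavy chain is encoded by joining 1 of many V segments to a D and a J segment. Each B cell and its progeny normally keep a single productive V(D)J join, so a plasma cell clone expresses 1 V segment at a high level, next to a constant region such as that of IgM, IgG or IgA. Joining begins in lymphoid progenitors, where V segments that are not yet joined can also be transcribed. HSCs are not known to make antibody.

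The Ighv records lay on chr12:113572927-116010093 (GRCm38, coordinates as in the count table), from 143 to 2580 kb from Ighj1, the J segment nearest to them. The GENCODE annotation of this build held all 185 at the same positions, with 115 as functional V genes and 70 as pseudogenes. Their symbols fell into 16 families, and Ighv1, the distal family known as J558, held 93. In all, 183 were on the minus strand, and the other 2 were second records of the symbols Ighv5-8 and Ighv1-13. The segments that led the counts are shown by the last 290 coding bases of their GENCODE transcripts, from 5′ to 3′. Capitals mark the codon of the conserved cysteine that closes the V segment, after which the D segment is joined. Ighv9-2 (chr12:114109001-114109430) and Ighv2-2 (chr12:113588267-113588702) led Nynrin CKO 1 and 2. Ighv1-9 (chr12:114583569-114584002) and Ighv5-16 (chr12:113838526-113839010) led Nynrin CKO 3 and 4. Ighv3-6 (chr12:114288152-114288582) took the highest share of any library, in control 2, and Ighv1-77 (chr12:115861867-115862355) had counts in all 8 libraries. All 6 are on the minus strand.
Ighv9-2: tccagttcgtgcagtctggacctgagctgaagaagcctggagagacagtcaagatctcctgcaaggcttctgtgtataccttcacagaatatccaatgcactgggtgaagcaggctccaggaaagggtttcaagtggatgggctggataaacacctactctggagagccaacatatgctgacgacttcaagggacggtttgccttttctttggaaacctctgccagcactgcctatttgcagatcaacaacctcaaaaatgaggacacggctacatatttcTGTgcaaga
Ighv2-2: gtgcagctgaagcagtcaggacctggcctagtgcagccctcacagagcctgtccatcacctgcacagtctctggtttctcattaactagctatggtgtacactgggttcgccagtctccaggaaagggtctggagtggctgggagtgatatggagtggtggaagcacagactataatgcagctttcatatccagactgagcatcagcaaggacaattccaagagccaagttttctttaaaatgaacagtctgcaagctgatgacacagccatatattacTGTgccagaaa
Ighv1-9: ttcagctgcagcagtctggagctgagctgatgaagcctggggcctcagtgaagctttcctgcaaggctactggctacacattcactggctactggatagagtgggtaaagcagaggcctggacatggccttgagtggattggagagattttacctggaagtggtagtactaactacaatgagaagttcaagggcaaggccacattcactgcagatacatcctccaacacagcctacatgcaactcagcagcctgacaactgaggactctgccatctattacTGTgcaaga
Ighv5-16: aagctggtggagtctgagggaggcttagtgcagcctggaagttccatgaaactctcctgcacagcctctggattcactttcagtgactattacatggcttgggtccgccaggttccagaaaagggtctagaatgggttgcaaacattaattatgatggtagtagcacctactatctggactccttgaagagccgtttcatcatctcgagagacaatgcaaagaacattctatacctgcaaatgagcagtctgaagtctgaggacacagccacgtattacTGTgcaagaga
Ighv3-6: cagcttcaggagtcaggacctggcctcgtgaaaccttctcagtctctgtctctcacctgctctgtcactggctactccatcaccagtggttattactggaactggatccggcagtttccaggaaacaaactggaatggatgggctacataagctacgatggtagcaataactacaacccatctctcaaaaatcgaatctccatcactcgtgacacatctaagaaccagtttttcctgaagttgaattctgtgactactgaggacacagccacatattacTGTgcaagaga
Ighv1-77: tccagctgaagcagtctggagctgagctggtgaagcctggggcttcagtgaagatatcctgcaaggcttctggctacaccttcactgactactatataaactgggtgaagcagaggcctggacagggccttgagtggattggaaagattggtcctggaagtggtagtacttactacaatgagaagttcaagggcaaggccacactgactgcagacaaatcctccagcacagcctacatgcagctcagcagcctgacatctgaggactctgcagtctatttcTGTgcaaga
The 14 segments that held at least 5% of the Ighv counts of some library, called leading segments below, differed in sequence. Over 260 coding bases, with the last 20 before the join left out, the 91 pairs among them were 54.2% to 92.3% identical. Identity to the nearest of all Ighv records was higher. Of 180 segments long enough to compare, 86 had another at 95% or more and 22 at 98% or more. Ighv2-2 and Ighv2-4 were 98.5% identical, and Ighv1-23 and Ighv1-15 98.1%. The handling of reads with several matches is not given in the sources used, so counts of such neighbours are uncertain. Ighv1-9 was at most 90.8% identical to another segment and Ighv5-16 at most 85.4%.

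Total counts were 36942835 to 50260720 in controls and 43998525 to 56437299 in Nynrin CKO libraries. Nynrin itself was at 30.1 to 47.5 CPM (counts per 1000000, with library sizes scaled by the TMM method) in controls and 8.22 to 12.7 CPM in Nynrin CKO libraries, lower in all 4. None of 15 HSC marker genes was at 0 in any library. They summed to 4372 to 5095 CPM in controls against 4927 to 6011 CPM in Nynrin CKO libraries, of which Kit alone gave 1351 to 1632 and 1305 to 2361 CPM. By edgeR, Tek was called higher and none lower. Tek is the gene of Tie2, whose promoter drives Cre in the Nynrin CKO mice. At an unadjusted edgeR p under 0.05, 2 of the 15 were higher and 5 lower, and DESeq2 called 1 higher and 3 lower. Mecom was at 99.6 ± 6.68 CPM in controls against 50.4 ± 20.6 CPM in Nynrin CKO libraries (SD, n = 4 each; edgeR adjusted p = 0.0746). Libraries fell into sets that cut across the groups. Genes for olfactory and vomeronasal receptors, proteins of sensory neurons, held 836 to 1389 CPM in controls 1 to 3 and Nynrin CKO 1 and 2, and 166 to 205 CPM in control 4 and Nynrin CKO 3 and 4. Nynrin CKO 1 and 2 were also unusually alike, as were Nynrin CKO 3 and 4. Over all tested genes their counts differed by 18.7 and 18.2 times the variance expected from sampling, against 30.8 to 190 times for the other 26 pairs of libraries. Separate libraries of a single pool of cells would also exceed sampling noise, so whether the libraries of a close pair are separate samples cannot be told apart from these counts. Each library was counted as 1 sample, as labelled, and an n of 4 in the Nynrin CKO group rests on that. With each close pair summed into 1 sample, no gene of 32849 tested passed in edgeR, with 4.77% higher and 4.43% lower at an unadjusted p under 0.05.

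Ighv segments together were about 3.40 times higher in Nynrin CKO libraries than in controls, and a few segments held most of the counts in each Nynrin CKO library. The summed Ighv level was 42.2, 49.3, 55.0 and 23.6 CPM in controls 1 to 4, a mean of 42.5 ± 13.7 (SD, n = 4). It was 142, 142, 146 and 148 CPM in Nynrin CKO 1 to 4, a mean of 144.6 ± 3.01 (SD, n = 4). The groups did not overlap, and the difference of 102 CPM was larger than either SD. No test was made of this sum. Counted as 1 sample each, Nynrin CKO 1 and 2 averaged 142.1 CPM and Nynrin CKO 3 and 4 averaged 147.2 CPM. In these bulk libraries more cells with Ighv RNA and more Ighv RNA per cell cannot be told apart.

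Leading segments held 28.1% to 52.6% of the Ighv counts in controls and 73.8% to 82.4% in Nynrin CKO libraries. The rest of the segments held 23.5, 23.4, 39.5 and 13.9 CPM in controls and 25.0, 25.0, 38.4 and 30.5 CPM in Nynrin CKO libraries. Leading segments were picked in each library from the counts that make up the sum, so these remainders are low by construction and are given as a description only. Pseudogene records, which cannot encode antibody, held 5.06 to 12.2 CPM in controls against 4.77 to 11.4 CPM in Nynrin CKO libraries, and none of the 14 leading segments was a pseudogene. Just outside the limit of 5% was Ighv6-3 in control 1, with 4.98%.

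**Figure D1:**
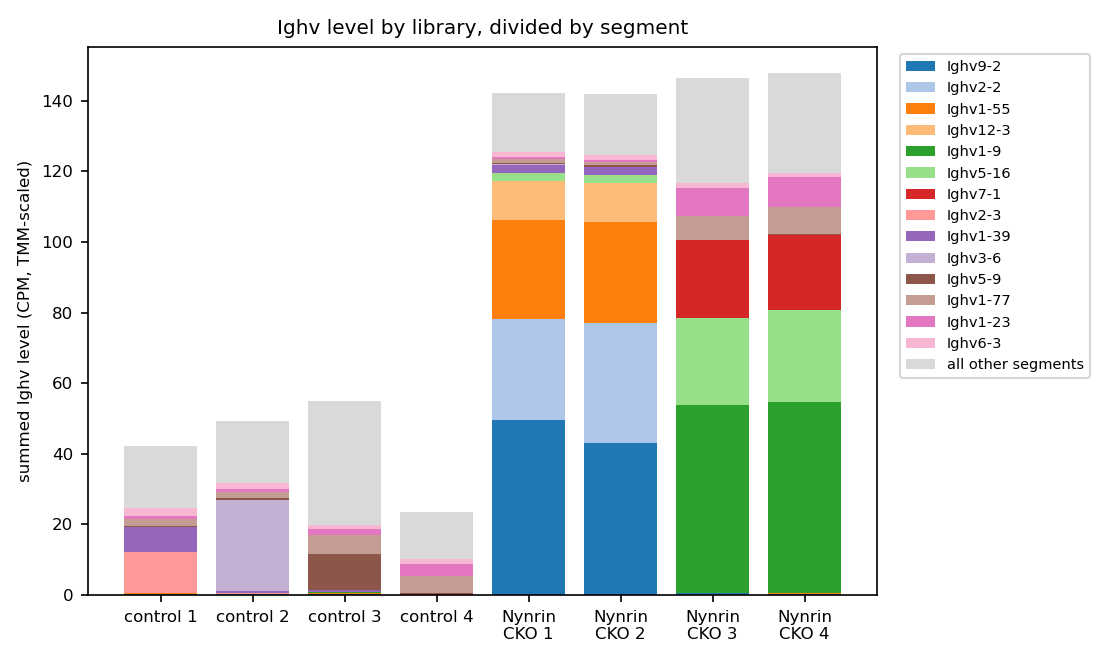
Summed Ighv level of each library in TMM-scaled CPM (vertical axis), with 1 bar per library divided by segment and all other segments in grey. The 4 Nynrin CKO bars reach 142 to 148 CPM and the control bars 23.6 to 55.0 CPM. The coloured parts differ between Nynrin CKO 1 and 2 on one side and Nynrin CKO 3 and 4 on the other.

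The segment with most counts differed between libraries. In control 1 it was Ighv2-3, with 27.1% of the Ighv counts (exact binomial 95% interval 25.1% to 29.3%). In control 2 it was Ighv3-6, with 52.6% (50.5% to 54.8%). In control 3 it was Ighv5-9, with 18.3% (16.7% to 19.9%). No control shared its top segment with another, and control 4 was led by Ighv1-77, with 20.9% (18.7% to 23.3%). Ighv9-2 led both Nynrin CKO 1, with 34.9% (33.7% to 36.1%), and Nynrin CKO 2, with 30.4% (29.3% to 31.5%). Ighv1-9 led Nynrin CKO 3, with 36.4% (35.3% to 37.6%), and Nynrin CKO 4, with 36.6% (35.4% to 37.8%). The top share averaged 29.7% ± 15.7 in controls and 34.6% ± 2.89 in Nynrin CKO libraries (SD, n = 4 each). That difference of 4.82 percentage points was smaller than the SD among controls. Nynrin CKO 1 and 2 averaged 32.6% and Nynrin CKO 3 and 4 averaged 36.5%. The intervals cover counting error only, since reads of amplified cDNA are not independent molecules, and in every library more genes held 2 counts than 1.

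Nynrin CKO 1 and 2 were led by 4 segments that led no other library. Ighv9-2 had 8, 12, 7 and 0 counts in controls 1 to 4, 2240 and 2088 in Nynrin CKO 1 and 2, and 20 and 13 in Nynrin CKO 3 and 4. Ighv2-2 had 0, 4, 8 and 0 counts in controls, 1290 and 1643 in Nynrin CKO 1 and 2, and 0 and 2 in Nynrin CKO 3 and 4. Ighv1-55 had 11, 0, 12 and 0 counts in controls, 1261 and 1382 in Nynrin CKO 1 and 2, and 5 and 9 in Nynrin CKO 3 and 4. Each of these was high in the same 2 libraries and near 0 in the rest. Ighv12-3 had 501 and 547 counts in Nynrin CKO 1 and 2 and 0 in the other 6 libraries. Its mean over the Nynrin CKO group was at least 333-fold higher than a floor of 3 counts over the control group. Together the 4 segments held 82.4% of the Ighv counts in each of Nynrin CKO 1 and 2. Their nearest neighbours in sequence had at most 46 counts in those libraries. That highest value was of Ighv2-4, the nearest to Ighv2-2, which had 12 and 46 counts.

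A separate set of 3 segments did the same in Nynrin CKO 3 and 4. Ighv1-9 had 0, 0, 7 and 7 counts in controls, 0 and 0 in Nynrin CKO 1 and 2, and 2422 and 2249 in Nynrin CKO 3 and 4. Ighv7-1 had 7, 2, 0 and 6 counts in controls, 0 and 0 in Nynrin CKO 1 and 2, and 1000 and 875 in Nynrin CKO 3 and 4. Ighv5-16 had 0, 0, 4 and 0 counts in controls, 105 and 111 in Nynrin CKO 1 and 2, and 1119 and 1091 in Nynrin CKO 3 and 4. It was the only one of these 7 segments with over 25 counts in every Nynrin CKO library. The 3 segments held 68.3% and 68.5% of the Ighv counts in Nynrin CKO 3 and 4.

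Controls had leading segments too. Of these, Ighv1-77, Ighv1-23 and Ighv6-3 had counts in all 8 libraries, while others stood high in a single control. Ighv3-6 had 1090 counts in control 2 and 0 to 12 in the other 7 libraries. Ighv2-3 had 474 counts in control 1, 11, 3 and 0 in the other controls and 0 in all Nynrin CKO libraries. Ighv5-9 had 428 counts in control 3 and 0 to 21 elsewhere. These 3 segments were thus high in a single control each. Ighv1-39 had 297 counts in control 1, 100 and 98 in Nynrin CKO 1 and 2, and 2 to 14 in the others. In CPM per kb of record, averaged over the 8 libraries, Ighv1-9 stood highest at 38.4, followed by Ighv9-2 at 33.5, Ighv2-2 at 22.3, Ighv5-16 at 18.3 and Ighv1-55 at 17.3. No order can be read between these 5, since each is high in a few libraries only.

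**Figure D2:**
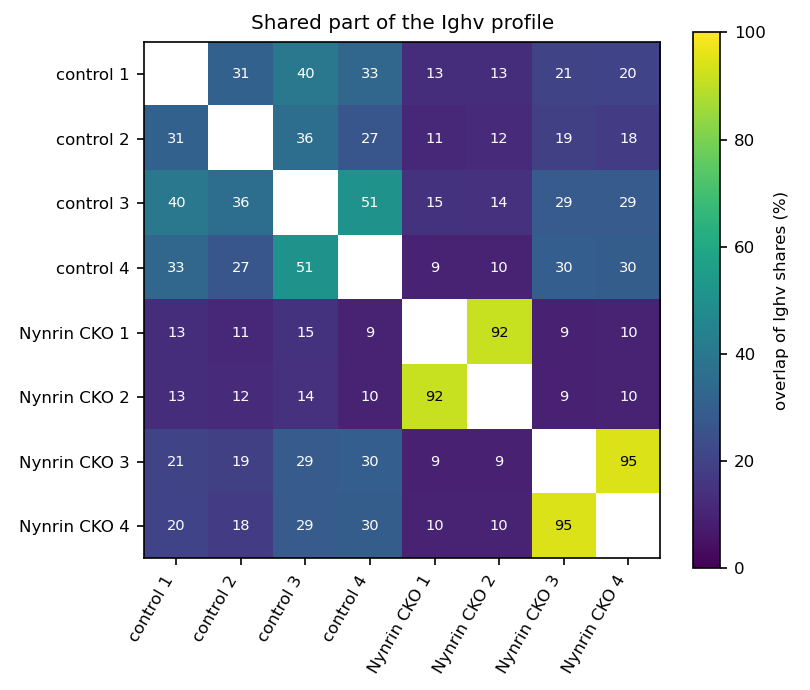
Overlap of Ighv profiles for each pair of libraries, as the summed smaller share of each segment, in per cent (colour and number). Nynrin CKO 1 and 2 share 91.5% and Nynrin CKO 3 and 4 share 94.7%, and every other pair shares 9.20% to 51.0%.

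The whole profiles of shares repeated the pattern of the leading segments, as the map of profile overlap shows. Overlap was 91.5% between Nynrin CKO 1 and 2 and 94.7% between Nynrin CKO 3 and 4. It was 9.20% to 51.0% in the other 26 pairs, including the pairs of Nynrin CKO libraries from different sides. Of the 10 segments with most counts, 9 were shared within each of those close pairs and 2 to 7 in the others. Even so, Ighv counts within the close pairs varied 3.70 and 2.36 times as much as sampling alone gives, against 11.7 to 184 times in the others.

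Tested with all other genes, a single Ighv segment passed. The edgeR quasi-likelihood test with Benjamini-Hochberg adjustment covered 27573 genes, among them 35 Ighv segments, 28 of family 1. The other 150 had counts too low or in too few libraries, and these include 6 leading segments, Ighv1-9, Ighv2-2, Ighv7-1, Ighv12-3, Ighv3-6 and Ighv2-3. Ighv5-16 was called higher in Nynrin CKO, which is 2.86% of the tested segments, beside 2.22% of all genes tested. No segment was called lower, beside 0.588% of all genes, and none of the 35 was lower at an unadjusted p under 0.05, beside 5.78%, or by DESeq2, beside 3.55%. Without the filter on low counts, edgeR tested 171 segments and called none, beside 0.0949% of all genes in that fit. At an unadjusted p under 0.05, 9 of the 171 were higher, beside 6.56% of all genes, and 21 were lower, beside 8.12%. With 1 segment called of 35, this share is near the background. Of the tested segments, 3 had an unadjusted p under 0.05, which is 8.57% beside 18.9% of all genes. All Nynrin CKO libraries lay above all controls for 2 of the 35, Ighv5-16 and Ighv9-2, which is 5.71% beside 9.52% of all genes. None lay below, beside 4.83%. Ighv5-16 and Ighv9-2 had at most 4 and 12 counts in any control, and passed the filter through their Nynrin CKO counts. That they lie apart is thus a description only.

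Ighv5-16 stood at 0.0235 ± 0.0470 CPM in controls against 13.9 ± 13.4 CPM in Nynrin CKO libraries (SD, n = 4 each). Its log2 fold change was 9.09 (SE 1.37, edgeR adjusted p = 0.0345), with 4 of 4 Nynrin CKO libraries above the highest control. The control side of this fold rests on 4 counts. It was also called by DESeq2. The edgeR call was lost in 7 of the 8 fits that left out 1 library, with edgeR adjusted p = 0.0545 to 0.138, and held without control 4. It was also lost when each close pair was summed into 1 sample, with edgeR adjusted p = 0.402. Ighv9-2 had a log2 fold change of 7.21 (SE 1.78, edgeR adjusted p = 0.0619) and Ighv1-55 one of 6.71 (SE 1.89, edgeR adjusted p = 0.0856). Neither passed in edgeR, while DESeq2 called both, with adjusted p = 0.000622 for Ighv9-2 and 0.0141 for Ighv1-55. DESeq2 thus called 3 of the 35 segments higher, which is 8.57% beside 6.01% of all genes. With each close pair summed, edgeR gave adjusted p = 0.443 for both Ighv9-2 and Ighv1-55. Ighv5-9, the tested segment with the next smallest p, had a log2 fold change of -3.14 (SE 1.47, edgeR adjusted p = 0.292). Without control 3, which held most of its counts, this was -0.05. Over the 35 segments the median log2 fold change was 0.26, beside -0.09 over all genes tested, and 27 of them (77.1%) were above 0, beside 44.5% of all genes. Some of the 35, such as Ighv5-16, passed the filter on low counts only through the group where they are high. Their direction is therefore a description of the tested segments, not of the family. Without that filter, 9 of 171 segments were higher and 21 lower at an unadjusted edgeR p under 0.05.

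A different group of segments had counts everywhere. Of the 185, 20 had counts in all 8 libraries, 14 in none and 151 in 1 to 7. Of the 20, 18 were of family Ighv1 and 2 of Ighv6, and 8 were pseudogenes. All 20 lay 962 to 2523 kb from Ighj1, in a locus that ran from 143 to 2580 kb. Ighv6-3 was even across libraries, with 87, 63, 52 and 65 counts in controls and 53, 67, 62 and 44 in Nynrin CKO libraries. Its log2 fold change was -0.28 (edgeR adjusted p = 0.760). Ighv1-77 had 78, 75, 229 and 258 counts in controls and 47, 49, 299 and 310 in Nynrin CKO libraries. Ighv1-23 had 37, 39, 79 and 183 counts in controls and 29, 31, 365 and 358 in Nynrin CKO libraries. Both were lowest in Nynrin CKO 1 and 2 and highest in Nynrin CKO 3 and 4, and their groups overlapped. Among controls, Ighv1-77 was higher in controls 3 and 4, at 5.38 and 4.93 CPM, than in controls 1 and 2, at 1.88 and 1.79 CPM. The pseudogene Ighv1-27 had 6, 13, 30 and 18 counts in controls and 12, 9, 85 and 69 in Nynrin CKO libraries. Its log2 fold change was 1.40 (SE 0.89, edgeR adjusted p = 0.469), the lowest adjusted p among the 19 of these segments that were tested.

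Summed, these 20 segments held 18.4, 10.6, 21.6 and 17.3 CPM in controls against 10.2, 10.9, 34.5 and 35.0 CPM in Nynrin CKO 1 to 4. Nynrin CKO 1 and 2 thus lay at the low end of the controls, and Nynrin CKO 3 and 4 above them all. A segment seen in 1 library, of which there were 25, had at most 12 counts there, and 9 of the 14 segments seen in none were pseudogenes.

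**Figure D3:**
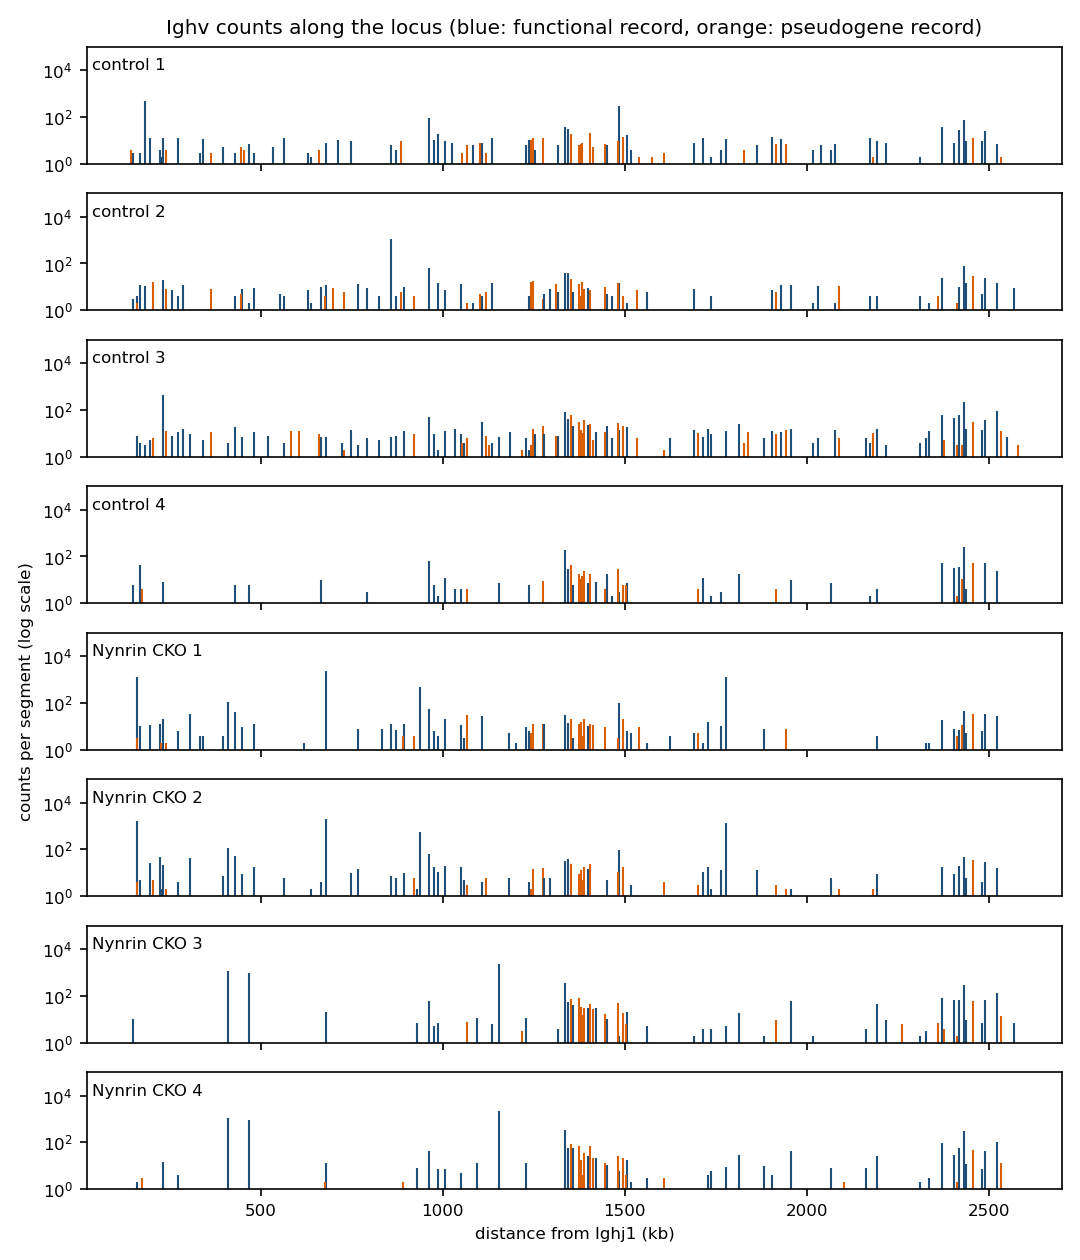
Counts of each Ighv segment (log axis, segments at 0 not drawn) against its distance from Ighj1 in kb, with 1 panel per library, functional records in blue and pseudogene records in orange. The single tall lines stand at other positions in Nynrin CKO 1 and 2 than in Nynrin CKO 3 and 4, while lines 962 to 2523 kb from Ighj1 recur in all 8 panels.

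By family, Ighv1 held 22.1, 14.3, 35.0 and 19.8 CPM in controls against 42.4, 41.7, 96.4 and 97.3 CPM in Nynrin CKO libraries. Without its leading segments it held 14.9, 14.3, 29.6 and 11.4 CPM in controls against 14.4, 13.2, 35.0 and 27.2 CPM in Nynrin CKO libraries. The second set of values is again low by construction and is a description only. The small Ighv9 family, with 4 members, reached 49.8 and 43.3 CPM in Nynrin CKO 1 and 2 and was at most 0.619 CPM in the other 6 libraries, nearly all of it Ighv9-2. Ighv7, also with 4 members, reached 22.0 and 21.0 CPM in Nynrin CKO 3 and 4, with at most 0.493 CPM elsewhere. Ighv3 reached 26.7 CPM in control 2 and at most 0.916 CPM elsewhere. Ighv6, without a leading segment in any Nynrin CKO library, ran from 1.49 to 3.31 CPM over all 8.

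On average fewer segments were detected in Nynrin CKO libraries, although their sum was higher. Segments with any counts numbered 100, 99, 127 and 58 in controls 1 to 4 and 87, 84, 64 and 64 in Nynrin CKO 1 to 4. The means were 96 ± 28.5 and 74.75 ± 12.5 segments (SD, n = 4 each), and the difference of -21.25 was smaller than the SD among controls. Nynrin CKO 1 and 2 averaged 85.5 segments and Nynrin CKO 3 and 4 averaged 64. Thinning every library to the smallest total left 57.3 to 127 segments in controls and 63.0 to 86.4 in Nynrin CKO libraries. Segments with at least 10 counts numbered 32, 36, 59 and 25 in controls and 41, 41, 36 and 37 in Nynrin CKO libraries, with no fewer in Nynrin CKO on average. Breadth moved with the receptor reads. Control 4 and Nynrin CKO 3 and 4, with 37.4% to 50.2% of receptor genes detected, had counts for 31.4% to 34.6% of Ighv segments. The other 5 libraries, with 84.1% to 94.3% of receptor genes detected, had 45.4% to 68.6%. The part of these reads in the breadth of Ighv detection was not tested. Within the libraries with more receptor reads, 99 to 127 segments were detected in controls 1 to 3 and 84 and 87 in Nynrin CKO 2 and 1. Among the libraries with more receptor reads, the summed level was 42.2 to 55.0 CPM in controls against 142 CPM in Nynrin CKO. Among those with few, it was 23.6 CPM in control 4 against 146 and 148 CPM in Nynrin CKO 3 and 4. Control 4, the only control with few receptor reads, had the lowest sum of the controls. The part of the receptor reads in the summed level was not tested.

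**Figure D4:**
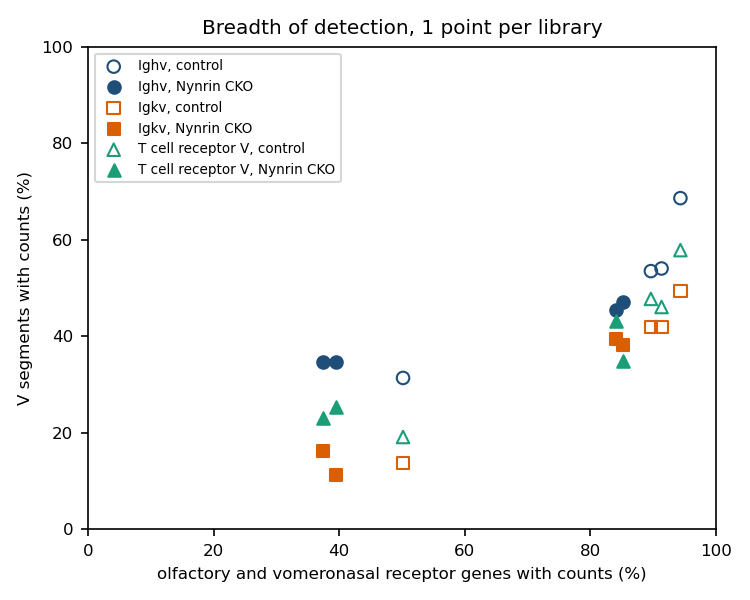
Share of V segments with counts (vertical axis, per cent) against share of olfactory and vomeronasal receptor genes with counts (horizontal axis, per cent), 1 point per library and V family, with open symbols for controls and filled ones for Nynrin CKO. Control 4 and Nynrin CKO 3 and 4 sit at 37.4% to 50.2% on the horizontal axis and at or below 34.6% on the vertical axis.

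Evenness was summarised by the effective number of segments, the number of equally used segments that would give the same Simpson index. It was 9.01, 3.54, 19.1 and 12.2 in controls and 4.81, 5.07, 5.25 and 5.18 in Nynrin CKO libraries. Controls spanned a wide range, with control 2 below every Nynrin CKO library and the other 3 above them all.

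The kappa light chain V segments, which pair with heavy chains in an antibody, showed leading segments of the same kind. The summed Igkv level was 51.8, 37.2, 32.5 and 1.99 CPM in controls against 133, 138, 202 and 201 CPM in Nynrin CKO libraries. Igkv4-57-1 led Nynrin CKO 1 and 2, with 31.0% and 32.8% of the Igkv counts, and Igkv19-93 led Nynrin CKO 3 and 4, with 31.9% and 32.5%. Controls 1 to 4 were led by Igkv6-20, Igkv17-121, Igkv9-124 and Igkv1-117. Again no control shared a top segment with another library. T cell receptor V segments, which use the same joining enzymes, did not show the higher sum. They held 21.0, 18.8, 24.4 and 12.3 CPM in controls against 19.5, 19.5, 12.4 and 10.2 CPM in Nynrin CKO libraries. Heavy chain D segments, which are very short, summed to at most 0.547 CPM in any library.

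Levels of the constant region genes split the same libraries. Ighm, the constant region of IgM, was at 40.8, 38.5, 84.9 and 76.2 CPM in controls, 58.5 and 53.8 in Nynrin CKO 1 and 2, and 1012 and 1026 CPM in Nynrin CKO 3 and 4 (edgeR adjusted p = 0.104). Igha, the constant region of IgA, was at 94.5, 3.07, 40.8 and 3.09 CPM in controls, 349 and 328 in Nynrin CKO 1 and 2, and 0.419 and 0.168 CPM in Nynrin CKO 3 and 4. Ighg2c, an IgG constant region, was highest in control 2, at 89.8 CPM, and at 32.4 and 28.8 CPM in Nynrin CKO 1 and 2. It was at most 2.51 CPM elsewhere. Igha and Ighg2c were chosen for the text after their values were seen. Igkc, the kappa constant region, was at 58.5, 42.5, 29.6 and 0.821 CPM in controls against 223, 244, 289 and 314 CPM in Nynrin CKO libraries (log2 fold change 3.03, edgeR adjusted p = 0.0862). The 12 constant region genes summed to 85.2 to 205 CPM in controls against 671 to 1365 CPM in Nynrin CKO libraries, and of the 11 tested none was called by edgeR, with 4 higher at an unadjusted p under 0.05 and 3 called higher by DESeq2.

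**Figure D5:**
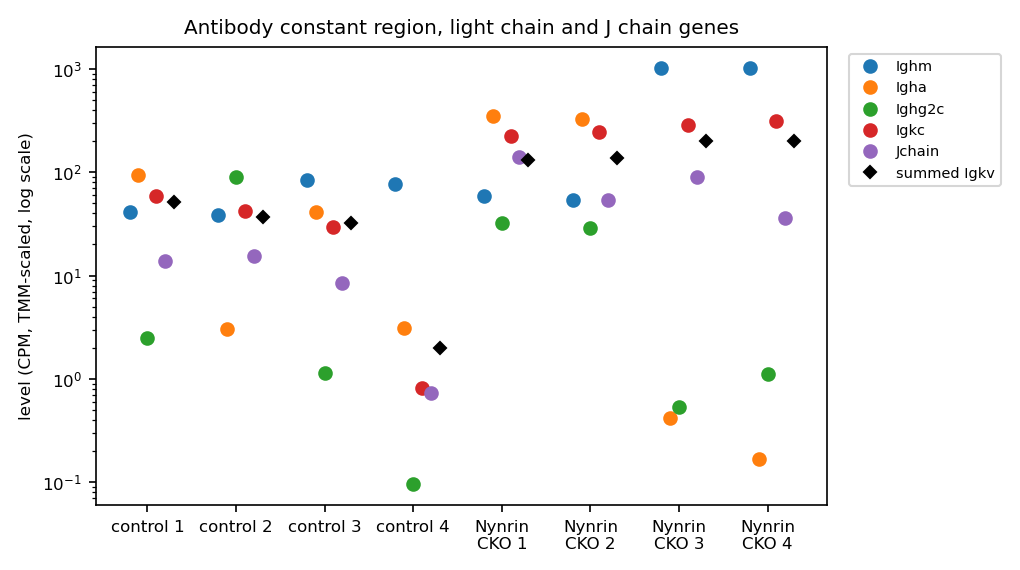
Level of Ighm, Igha, Ighg2c, Igkc and Jchain and the summed Igkv level in each library, in TMM-scaled CPM on a log axis, with 1 point per gene and library. Igha stands at 349 and 328 CPM in Nynrin CKO 1 and 2 and below 1 CPM in Nynrin CKO 3 and 4, where Ighm stands at 1012 and 1026 CPM.

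Genes of antibody-secreting cells and of B cells were measured beside these segments. The counts of list members called, above, here and below, stand beside shares of all genes tested. These were 2.22% called higher by edgeR, 13.2% higher at an unadjusted p under 0.05 and 6.01% called higher by DESeq2. For genes lower, the same shares were 0.588%, 5.78% and 3.55%. Jchain, which joins IgM and IgA into multimers, was at 14.0, 15.4, 8.39 and 0.726 CPM in controls against 141, 54.5, 89.5 and 36.4 CPM in Nynrin CKO libraries (log2 fold change 3.07, edgeR adjusted p = 0.0632). Of 12 plasma cell genes, 1 was called higher, Mzb1, a chaperone of antibody assembly, at 0.338 ± 0.230 CPM in controls against 2.59 ± 0.871 CPM in Nynrin CKO libraries (SD, n = 4 each; edgeR adjusted p = 0.0417). With each close pair summed, edgeR gave Mzb1 an adjusted p = 0.443. The list summed to 151 to 237 CPM in controls against 278 to 362 CPM in Nynrin CKO libraries, with Tnfrsf17 and Slamf7 at 0 in some library. Jchain is a member of this list and gave 14.0 of 151, 15.4 of 230, 8.39 of 222 and 0.726 of 237 CPM in controls 1 to 4. In Nynrin CKO 1 to 4 it gave 141 of 362, 54.5 of 290, 89.5 of 334 and 36.4 of 278 CPM. Without Jchain the sums of the list overlapped between the groups. Xbp1, the most abundant member, overlapped, at 77.6 to 105 CPM in controls against 101 to 116 CPM in Nynrin CKO libraries. Of the 12 genes, 8 had a log2 fold change above 0, and Sdc1, Irf4, Eaf2 and Fkbp11 were below 0. At an unadjusted edgeR p under 0.05, 2 of the 12 were higher, and DESeq2 called 2 higher. Of 18 pro-B and B cell genes none was called by edgeR, with 4 higher at an unadjusted p under 0.05 and 4 called higher by DESeq2. They summed to 152 to 208 CPM in controls, 539 and 587 in Nynrin CKO 1 and 2 and 252 and 253 CPM in Nynrin CKO 3 and 4, with Cd79a, Spib and Blk at 0 in some library. Cd74, an antigen presentation gene that other cells than B cells also use, gave 473 and 521 CPM of this in Nynrin CKO 1 and 2 and 141 and 144 CPM in Nynrin CKO 3 and 4. Without it the list summed to 51.4 to 61.2 CPM in controls, 66.1 and 66.0 in Nynrin CKO 1 and 2, and 112 and 109 CPM in Nynrin CKO 3 and 4.

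Several genes of V(D)J joining and early lymphoid cells were highest in Nynrin CKO 3 and 4. Dntt, the enzyme that adds bases at the joins, was at 35.8 to 130 CPM in controls, 44.4 and 51.2 in Nynrin CKO 1 and 2, and 944 and 940 CPM in Nynrin CKO 3 and 4. Il7r, the receptor chain for a lymphoid growth signal, was at 2.24 to 3.71 CPM in controls, 2.61 and 3.16 in Nynrin CKO 1 and 2, and 33.1 and 35.5 CPM in Nynrin CKO 3 and 4. Rag1, a subunit of the recombinase, was at 0.229 to 3.07 CPM in controls against 0.510 to 1.83 CPM in Nynrin CKO libraries. Rag2, the other subunit, was at 1.36 to 4.46 CPM in controls and 2.70 and 2.91 CPM in Nynrin CKO 1 and 2. In Nynrin CKO 3 and 4 Rag2 was at 19.1 and 17.4 CPM (edgeR adjusted p = 0.203). Of 11 genes on this list none was called by edgeR, with 8 higher at an unadjusted p under 0.05 and 2 called higher by DESeq2. The list summed to 641 to 1081 CPM in controls, 736 and 761 in Nynrin CKO 1 and 2, and 3860 and 3843 CPM in Nynrin CKO 3 and 4. Ighm, counted above with the constant region genes, is also a member of this list. It gave 1012 and 1026 CPM of the sums in Nynrin CKO 3 and 4. Markers of other marrow cells moved with the groups as well. Neutrophil and precursor genes summed to 206 to 362 CPM in controls, 486 and 536 in Nynrin CKO 1 and 2, and 4163 and 4194 CPM in Nynrin CKO 3 and 4, with 3 of 12 called higher by edgeR and Fcnb at 0 in some library. Mpo alone gave 2829 and 2824 CPM of this in Nynrin CKO 3 and 4. Without Mpo the list summed to 127 to 301 CPM in controls, 321 and 377 in Nynrin CKO 1 and 2, and 1334 and 1370 CPM in Nynrin CKO 3 and 4. Of its 12 genes, 9 were higher at an unadjusted edgeR p under 0.05, and DESeq2 called 8 higher. T and NK cell genes summed to 85.7 to 128 CPM in controls, 203 and 191 in Nynrin CKO 1 and 2, and 395 and 390 CPM in Nynrin CKO 3 and 4, with 1 of 15 called higher by edgeR and Klrd1, Prf1, Cd8a and Trac at 0 in some library. Nkg7, the gene called, gave 45.9 to 77.6 CPM of this in controls, 145 and 133 in Nynrin CKO 1 and 2, and 267 and 259 CPM in Nynrin CKO 3 and 4. Of the 15 T and NK cell genes, 13 had a log2 fold change above 0. At an unadjusted p under 0.05, 5 were higher, and DESeq2 called 4 higher. The T cell receptor gene Trbc1 was at 0.0714 to 1.57 CPM in controls against 2.08 to 6.27 CPM in Nynrin CKO libraries. Its log2 fold change was 2.47 (edgeR adjusted p = 0.0968). Only the T cell genes Cd3d and Cd8a had log2 fold changes below 0, of -0.83 and -0.35 (edgeR adjusted p = 0.711 and 0.938). Both were at most 0.784 CPM in any library. Monocyte and macrophage genes, with 2 of 12 called higher by edgeR, summed to 342 to 409 CPM in controls against 488 to 858 CPM in Nynrin CKO libraries. Lyz2 alone gave 262 to 329 CPM of this in controls against 367 to 547 CPM in Nynrin CKO libraries. Without Lyz2 the list summed to 79.4 to 105 CPM in controls against 119 to 324 CPM. Of its 12 genes, 9 were higher at an unadjusted edgeR p under 0.05, and DESeq2 called 6 higher. Erythroid genes, with 3 of 10 called higher by edgeR, summed to 1135 to 1439 CPM in controls against 2127 to 2481 CPM in Nynrin CKO libraries. Car2 alone gave 965 to 1281 CPM of this in controls against 1909 to 2181 CPM in Nynrin CKO libraries. Without Car2 the list summed to 157 to 170 CPM in controls against 213 to 312 CPM. Of its 10 genes, 4 were higher at an unadjusted edgeR p under 0.05, and DESeq2 called 3 higher. Endothelial genes overlapped between the groups, at 295 to 391 and 323 to 425 CPM, with none of 9 called by edgeR or called higher by DESeq2, 1 called lower by DESeq2, and 1 higher and 1 lower at an unadjusted p under 0.05. The part of B cell, plasma cell, lymphoid progenitor or other marrow cell RNA in the Ighv levels was not tested.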

How the data were processed

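The 8 libraries were grouped and numbered by their labels. Each sample held about 3000 sorted HSCs, its RNA was taken up in Trizol, and 5 ng of cDNA went into a library, per the labels' protocols. The series text also gives 500 cells and names a transposase-based kit. The authors deposited whole-number counts per gene, not normalized, on build mm10 per the submitters' processing notes. Aligner, counter and strand setting: not given in the sources used here.

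Counts were tested across the whole table with edgeR 4.0.16 in R 4.3.3, by filterByExpr, TMM factors and a robust quasi-likelihood test. Adjustment was by Benjamini-Hochberg over the 27573 genes tested, at 0.05. DESeq2 1.42.0 was an alternative. The fit was tested on simulated data.

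Segments named were those called, the 3 with most counts per library, the 10 highest in CPM per kb and, with fewer than 5 called, the 5 smallest p. Members, lists and rules were chosen with earlier results of these data known. Sequences are GENCODE transcripts, compared with edlib 1.3.9.post1. Library sets were split at 300 CPM of receptor reads.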

Additional observations from a re-analysis of the deposited data

Results flagged for a closer look

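In 38 groups of 4 libraries examined for a value far from the other 3, 6 control values stood out. The segments with these values had been named in part for high counts in single libraries of these data. No rate expected by chance can therefore be set beside this number. Control 1 stood apart for Ighv2-3, at 11.4 CPM, and for Ighv1-39, at 7.17 CPM. Control 2 stood apart for Ighv3-6, at 25.9 CPM. Control 3 stood apart for Ighv5-9, at 10.1 CPM, for Ighv1-82, at 2.16 CPM, and for Ighv5-16, at 0.0940 CPM, the last from 4 counts beside 0 in the other 3 controls. No value of the Nynrin CKO group stood out in this way. The rule looks for 1 value apart from the other 3, so a segment high in both libraries of a close pair could not be flagged. The absence therefore does not show that the Nynrin CKO libraries were more alike than controls.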

How the results depend on the processing

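The count of segments called higher was 1 in the reported edgeR fit and with upper-quartile factors, total counts or no robust estimation. It was 0 with RLE factors, 0 without a filter on low counts (171 segments tested, 9 higher and 21 lower at an unadjusted p under 0.05, beside 6.56% and 8.12% of all genes in that fit), 0 with a replicate block and 0 with Nynrin CKO pairs summed. It was 3 with the library set as a term and 3 in DESeq2 (Ighv9-2, Ighv5-16 and Ighv1-55 in both). Leaving out each replicate gave 0 to 1. None was called lower under any setting run. The labels tie no same-numbered libraries to a shared mouse or day. Deviations of same-numbered libraries correlated at 0.13, 0.12, -0.20 and 0.33, and 3 of 4 controls correlated best with their own number, a hint from the data only, so the numbers were not used as pairs. With the replicate block Ighv5-16 had an edgeR adjusted p = 0.0501. The Nynrin CKO minus control difference in summed CPM was 102, and it was 84.7 by total counts and 65.2 without the top segment of each library (95.8 to 106 with a replicate left out). The difference in segments with any counts was -21.25, and it was 0.75 for at least 10 counts (-33.9 to -10.9 with a replicate left out). The difference in top share was 4.82 percentage points, and it was -0.0551 within the libraries with more receptor reads (1.01 to 12.5 with a replicate left out). The causes were not tested. The 150 segments left out by the filter had low counts or counts in too few libraries, and without it 171 of 185 were tested.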
